A study of Mus musculus with 80 samples.

Results

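Oxct1, Bdh1 and Acat1 are enzymes of ketone body metabolism, and their transcripts were followed across 19 groups of mouse liver arrays. They were found by gene symbol in the deposited table of normalized intensities, where they are 3 of 18138 entries, and each was detected on all 80 arrays. The 3 genes were chosen by their intensity changes in these same comparisons, whose results were already known. Their values against the controls are therefore given as a description, with the standard error (SE) of each change and no p-value.

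The liver came from male B6C3F1 mice, a hybrid laboratory strain, and was measured on Illumina bead arrays. Ethinyl estradiol (EE2), a synthetic estrogen, was mixed into the diet at doses of 10, 5, 2.5 or 1 ppm for 7 d, and at 10 ppm also for 28 d. Prednisone (PRED), a glucocorticoid prodrug that the body converts to prednisolone, was mixed in likewise at 25, 5, 2.5 or 1.25 ppm for 7 d, and at 25 ppm also for 28 d. Androstenedione (A4), a steroid from which tissues form testosterone and estrone, was gavaged in carboxymethyl cellulose at 50, 20, 10 or 2 mg/kg/day for 7 d, and at 50 mg/kg/day also for 28 d. Each of these 15 treated groups had 4 arrays. Untreated feed was the control of EE2 and PRED, with 6 arrays at each duration, and EE2 and PRED groups of 1 duration share those control arrays. Gavage of the vehicle was the control of A4, with 4 arrays at each duration. The age of the mice is not given in the labels, and nothing there says that arrays came from separate animals. SEs and p-values therefore measure the spread between arrays, which may be partly technical. That spread was pooled for each gene over all groups, so an SE does not follow the scatter of the groups compared. For Oxct1 the log2 SD between arrays ran from 0.014 at A4 20 mg/kg/day for 7 d to 0.719 at PRED 5 ppm. The pooled SE can thus be too small for scattered groups and too large for tight ones.

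Every array had a median intensity between 105.7 and 106.4, which lies close to background, and the lowest value of the table was 85.9. The arrays detected 7743 to 9328 entries each. As a check of the tissue, Apoa1, Ttr, Hnf4a, Cps1, Asgr1 and Serpina1a, genes of hepatocytes, were detected on all 80 arrays. The entries of 2 other hepatocyte genes read low, with Alb detected on 47 arrays and Fabp1 on 0. Levels are not compared between genes, because each entry reads its own probe. In whole liver, fewer cells of a type and less RNA per cell cannot be told apart.

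Ketone bodies are made in liver mitochondria from acetyl-CoA that fatty acid oxidation supplies, and are burned in other organs such as heart, muscle and brain. Mitochondrial acetoacetyl-CoA thiolase, encoded by Acat1, joins or splits acetyl units at acetoacetyl-CoA, further mitochondrial steps lead on to acetoacetate, and Bdh1 interconverts acetoacetate and 3-hydroxybutyrate. Oxct1 encodes succinyl-CoA:3-ketoacid CoA transferase, which activates acetoacetate for oxidation, and hepatocytes normally hold little of it, so that the liver exports ketone bodies rather than using them.

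On the GRCm38.p6 assembly in RefSeq, Oxct1 (gene ID 67041) lies on chromosome 15 from 4026428 to 4155344, Bdh1 (71911) on chromosome 16 from 31422297 to 31458901, and Acat1 (110446) on chromosome 9 from 53580522 to 53610350. Steroid receptors act at promoters and more distant elements. The 250 bases before the first annotated start are shown for Oxct1 and Bdh1, the members that had a promoter entry. Both are on the plus strand, at chr15:4026178-4026427 and chr16:31422047-31422296.
Oxct1: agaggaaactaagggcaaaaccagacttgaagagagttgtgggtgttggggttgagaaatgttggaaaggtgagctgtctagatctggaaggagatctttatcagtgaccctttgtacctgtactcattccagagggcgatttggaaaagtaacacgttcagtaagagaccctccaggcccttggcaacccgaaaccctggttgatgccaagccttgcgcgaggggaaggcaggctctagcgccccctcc
Bdh1: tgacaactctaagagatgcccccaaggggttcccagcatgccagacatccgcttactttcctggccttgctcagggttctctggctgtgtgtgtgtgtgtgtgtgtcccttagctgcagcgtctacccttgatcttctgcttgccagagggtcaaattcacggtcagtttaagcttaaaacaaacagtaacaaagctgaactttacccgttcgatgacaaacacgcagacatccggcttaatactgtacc
Capitals would mark a motif match, and there are none. The letters searched on both strands were the glucocorticoid receptor half-site AGAACA, the estrogen receptor half-site AGGTCA, the full elements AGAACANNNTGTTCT and GGTCANNNTGACC, which do not contain each other, and AGGTCANAGGTCA, a repeat read by PPAR-RXR that holds the estrogen half-site. AGAACA occurred in 16.1% and AGGTCA in 14% of the 32841 windows of this length, and the longer elements in 0.00913%, 0.0639% and 0.0335% in the order given. A second Bdh1 start, at chr16:31428503-31428752, held none of them either. G and C made up 52% of the Oxct1 window and 49.6% of the first Bdh1 window, with 6 and 7 CpG dinucleotides.

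Oxct1, the enzyme that commits acetoacetate to oxidation, stood far higher in the livers of mice fed PRED at 25 ppm than in any other group. In the feed controls at 7 d its intensity had a lowest value of 135.4, a median of 139.2 and a highest value of 171.5. At PRED 25 ppm for 7 d the 4 arrays read 1226, 1313, 2050 and 728. Every one of them lay above every control. Their mean intensity of 1329 ± 545 (SD, n = 4) was 9.11 times that of the 6 controls.

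After 28 d the feed controls had a lowest Oxct1 intensity of 138.2, a median of 155.4 and a highest of 162.7. The arrays of PRED 25 ppm for 28 d read 1158, 1843, 2216 and 2080. The groups again did not overlap, and the mean of 1824 ± 470 (SD, n = 4) was 11.8 times that of the controls. On the log2(intensity + 16) scale the change was 2.97 (SE 0.209) at 7 d and 3.40 (SE 0.209) at 28 d. By size of change Oxct1 ranked 10th at 7 d and 17th at 28 d among the 11352 genes tested. The change at 28 d minus that at 7 d was 0.43 (SE 0.295). Since the control intensities lay near background and the model adds 16, these changes can understate the difference.

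**Figure D1:**
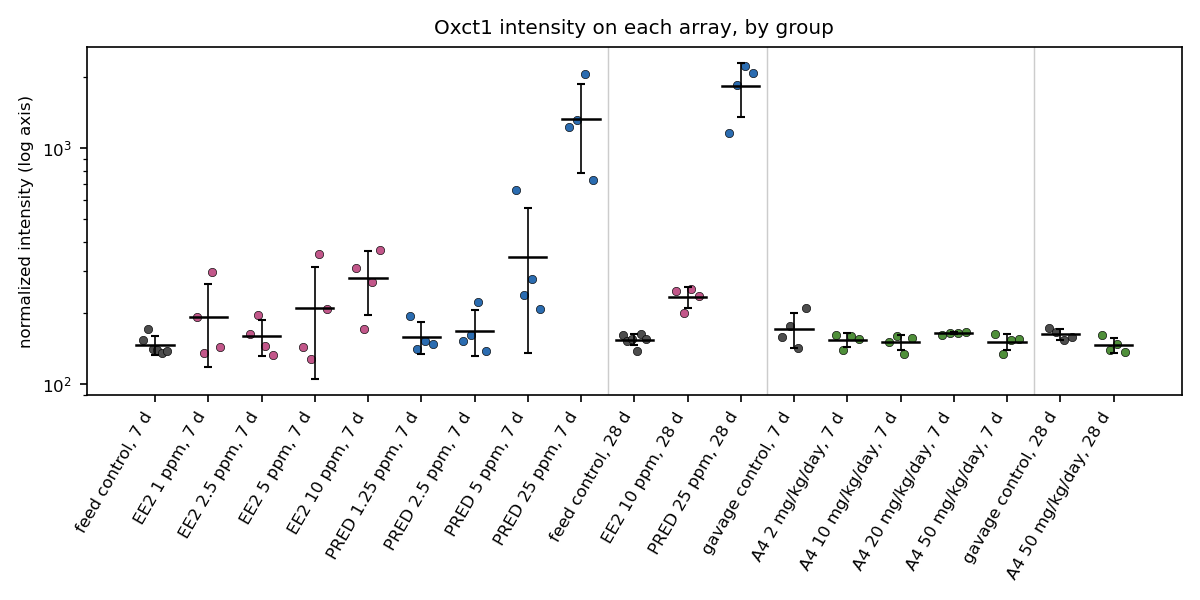
Normalized Oxct1 intensity (log axis) on each of the 80 arrays, by group. Points are arrays, horizontal lines group means and bars ± 1 SD; the PRED 25 ppm arrays read 728 to 2216, and every A4 array lay between 133.9 and 165.9.

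Below 25 ppm the Oxct1 intensities stepped down to the control range. At PRED 5 ppm the arrays read 660.1, 237.9, 277.7 and 208.5, all above the highest control at 171.5, with a change of 1.01 (SE 0.209). The first of these arrays stands apart from the other 3, and without it the change was 0.66. At PRED 2.5 ppm the arrays read 151.2, 160.8, 221.7 and 137.8, and at 1.25 ppm 194.5, 140.7, 151.8 and 147.1. In both groups 1 array lay above every control and the others lay within the control range, with changes of 0.17 and 0.10 (SE 0.209). Over the 4 doses at 7 d the slope per dose step, from the control to the highest dose, was 0.69 (SE 0.048). The steps were taken as equal whatever the doses. The rise itself was uneven, with changes of 0.17 at 2.5 ppm, 1.01 at 5 ppm and 2.97 at 25 ppm.

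EE2 was accompanied by smaller Oxct1 differences. At 10 ppm for 7 d the arrays read 309.1, 170.0, 271.3 and 369.8, so that 3 of 4 lay above every control and the second lay within their range, and the change was 0.83 (SE 0.209). At 10 ppm for 28 d the readings of 246.6, 200.4, 253.2 and 234.8 were all above the highest control, with a change of 0.55 (SE 0.209). The lower doses were uneven between arrays. Readings at 5 ppm were 143.5, 127.7, 356.7 and 207.9, at 2.5 ppm 162.7, 196.2, 144.3 and 133.1, and at 1 ppm 191.2, 135.7, 296.5 and 142.9. Their changes of 0.37, 0.10 and 0.30 (SE 0.209) rest on groups that overlap the controls, and without the third array the change was 0.10 at 5 ppm and 0.08 at 1 ppm.

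Macrophage markers were among those that moved at the EE2 dose with the higher Oxct1 readings. Of 11 tested macrophage and Kupffer cell markers, 10 rose at EE2 10 ppm at 7 d and 10 at 28 d. The threshold was a limma adjusted p under 0.05. Over all tested genes 18.1% rose at 7 d and 14.8% at 28 d. The median changes of the markers were 1.12 and 1.38, against medians over all tested genes of -0.001 and -0.008. The summed intensity of the 12 listed markers was 4708 to 6718 in the feed controls at 7 d and 3651 to 5939 at 28 d. On the EE2 10 ppm arrays at 7 d, in the order of the Oxct1 readings above, it was 24766, 5692, 15917 and 23814, so the array with the lowest Oxct1 reading also had the lowest marker sum. At 28 d it was 18014, 16153, 18187 and 15941 in the same order, and there the array with the lowest Oxct1 reading was not the one with the lowest sum. Other marker sums also lay apart from the controls at EE2 10 ppm. The 4 adipocyte markers, of which Plin1 was detected on 0 arrays, summed to 431 to 489 against 393 to 416 at 7 d and to 410 to 486 against 385 to 401 at 28 d. At 28 d the cholangiocyte sum (885 to 1492 against 623 to 883), the B cell sum (324 to 336 against 297 to 314) and the cell cycle sum (531 to 565 against 433 to 483) lay above the controls, and the hepatocyte sum (42235 to 47078 against 48973 to 54691) and the erythroid sum (2525 to 5701 against 6596 to 13738) below. Only Cidec of the adipocyte genes read above 121.5 on any array, and only Spp1 of the cholangiocyte genes above 167.2. Of the B cell genes only Cd79b read above 110.9. Each of these sums can thus mostly follow its highest gene. At EE2 10 ppm 18.8% of all tested genes at 7 d and 26% at 28 d did not overlap the controls. The part of any of these cells in the EE2 readings of Oxct1 was not tested. Under PRED 25 ppm for 7 d, 0 of the 11 markers passed the limma threshold, with 3 at an unadjusted p under 0.05. At 28 d 0 passed, with 1 at an unadjusted p under 0.05. Over all tested genes 6.01% were called at 7 d and 9.89% at 28 d. The macrophage sums at PRED 25 ppm were 3015 to 4266 at 7 d, below every control, and 3789 to 4451 at 28 d, within the control range. At PRED 25 ppm for 7 d the endothelial sum (6890 to 7372 against 4467 to 6487) and the hepatocyte sum (51278 to 54876 against 47209 to 50860) lay above every control, and the cell cycle sum (397 to 422 against 436 to 500) below. Of these lists 1 of 10 endothelial markers rose. The limma threshold was passed by 0 of 7 hepatocyte and 0 of 3 cell cycle markers. Of those, 0 and 0 had an unadjusted p under 0.05. Over all tested genes 3.29% rose in this comparison, and 9.58% did not overlap the controls. At 28 d the endothelial sum of 6695 to 7135 and the hepatocyte sum of 46650 to 52663 overlapped the controls, at 5031 to 7135 and 48973 to 54691. The part of these cells in the PRED readings of Oxct1 was not tested. Markers of skeletal muscle, a user of ketone bodies, read near background. Acta1, Ckm and Myh4 were detected on 0 arrays, Tnnt3 on 1 and Mb on 10, where Mb read at most 109.9. The summed muscle markers read 480 to 488 at PRED 25 ppm for 7 d and 476 to 496 in the controls. At 28 d they read 481 to 502 against 473 to 500. The part of muscle in the Oxct1 readings was not tested either.

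Under A4 Oxct1 stayed close to its control readings. The gavage controls read 157.4, 175.3, 142.3 and 209.6 at 7 d and 173.0, 165.3, 153.0 and 158.2 at 28 d. All A4 arrays read between 133.9 and 165.9, and the changes ran from -0.16 to -0.04 (SE 0.229) over the 5 groups. At 28 d 3 of the 4 arrays at 50 mg/kg/day, at 139.4, 147.8 and 136.1, lay below every control, and the fourth read 160.4.

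Bdh1, which converts acetoacetate to 3-hydroxybutyrate and back, stood lower in every PRED group than in the controls. In the feed controls at 7 d its intensity had a lowest value of 727, a median of 790 and a highest value of 1095. The PRED 1.25 ppm arrays read 514, 726, 611 and 663, all below the lowest control, the second by a small margin. At 2.5 ppm they read 835, 730, 459 and 643, and 2 of 4 lay below every control. At 5 ppm they read 526, 560, 807 and 394, and 3 of 4 lay below. At 25 ppm they read 317, 636, 430 and 639, all below every control. The changes were -0.44, -0.37, -0.60 and -0.79 (SE 0.234), and the slope per dose step was -0.17 (SE 0.053).

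At 28 d the feed controls had a lowest Bdh1 intensity of 988, a median of 1093 and a highest of 1232. The PRED 25 ppm arrays read 301, 494, 449 and 410. All of them lay far below every control, and the mean of 413.5 ± 82.9 (SD, n = 4) was 0.379 times the control mean of 1090 ± 88.8 (SD, n = 6). The change was -1.38 (SE 0.234), and it differed from that at 7 d by -0.60 (SE 0.331). The feed controls themselves read higher at 28 d than at 7 d, by 0.35 (SE 0.209).

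Under EE2 the Bdh1 readings of the lower doses scattered more than the controls, and those at 10 ppm for 7 d did not. At 1 ppm the arrays read 487, 1368, 646 and 406, and at 2.5 ppm 1659, 684, 565 and 1130, on both sides of the control range. At 5 ppm they read 521.4, 1224.2, 1067.0 and 1272.3, and at 10 ppm 1079.1, 1096.5, 799.6 and 1092.0. The SD on the log2 scale was 0.755, 0.693, 0.59 and 0.219 at rising dose against 0.241 in the controls. The changes were -0.38 at 1 ppm, 0.12 at 2.5 ppm, 0.18 at 5 ppm and 0.24 at 10 ppm (SE 0.234), all with overlapping groups. Single arrays decided the values below 10 ppm: leaving out 1 array gave -0.74 (without the second) to -0.16 (without the fourth) at 1 ppm, -0.16 (without the first) to 0.35 (without the third) at 2.5 ppm, and 0.052 (without the fourth) to 0.47 (without the first) at 5 ppm. At 10 ppm for 28 d the readings were 577, 693, 723 and 1057, 3 of them below every control, and the change was -0.54 (SE 0.234). The EE2 change at 28 d minus that at 7 d was -0.78 (SE 0.331). Under A4 every Bdh1 change lay between -0.10 and 0.14 (SE 0.257), and each A4 group overlapped its control.

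**Figure D2:**
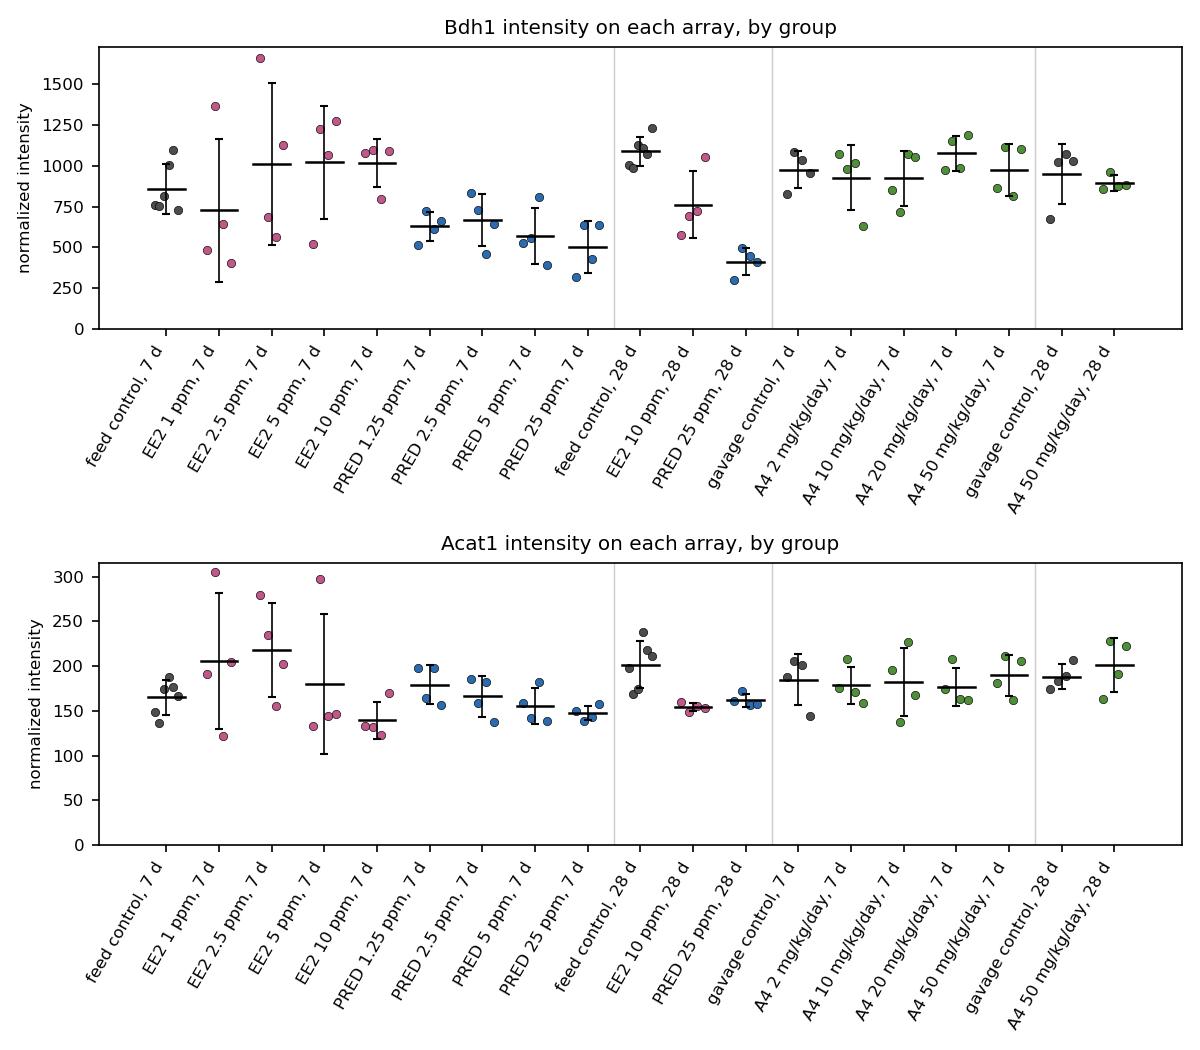
Normalized intensity of Bdh1 and of Acat1 on each of the 80 arrays, by group, on linear axes that start at 0. Points are arrays, horizontal lines group means and bars ± 1 SD; Bdh1 read 301 to 494 at PRED 25 ppm for 28 d against 988 to 1232 in its controls, while Acat1 stayed between 121.6 and 305.0 on all arrays.

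Acat1, the mitochondrial thiolase, had changes of at most 0.35 in size. In the feed controls at 7 d it had a lowest intensity of 136.1, a median of 170.4 and a highest of 187.5, and at 28 d 169.1, 204.5 and 238.1. At EE2 10 ppm for 28 d the arrays read 159.9, 148.2, 155.8 and 153.6, all below every control, with a change of -0.34 (SE 0.148). At 10 ppm for 7 d they read 133.3, 132.1, 123.4 and 169.9, 3 of 4 below every control, with a change of -0.22. The lower EE2 doses had changes of 0.24 at 1 ppm, 0.35 at 2.5 ppm and 0.05 at 5 ppm. At 1 ppm and at 2.5 ppm 3 of 4 arrays lay above every control. At 1 ppm the value was 0.037 without the array at 305.0 and 0.44 without that at 121.6. At 2.5 ppm it was 0.23 without the array at 279.6 and 0.49 without that at 154.9. The value at 5 ppm rests on 1 array at 297.0 among readings of 132.5 to 147.0, and without that array it was -0.20.

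Under PRED the Acat1 changes were 0.11, 0.01, -0.08 and -0.14 at rising dose (SE 0.148), and every group overlapped the controls. At 25 ppm for 28 d the readings of 160.9, 172.4, 156.5 and 157.3 gave -0.28, with 3 of 4 below every control. A4 changes ran from -0.05 to 0.08 (SE 0.162).

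**Figure D3:**
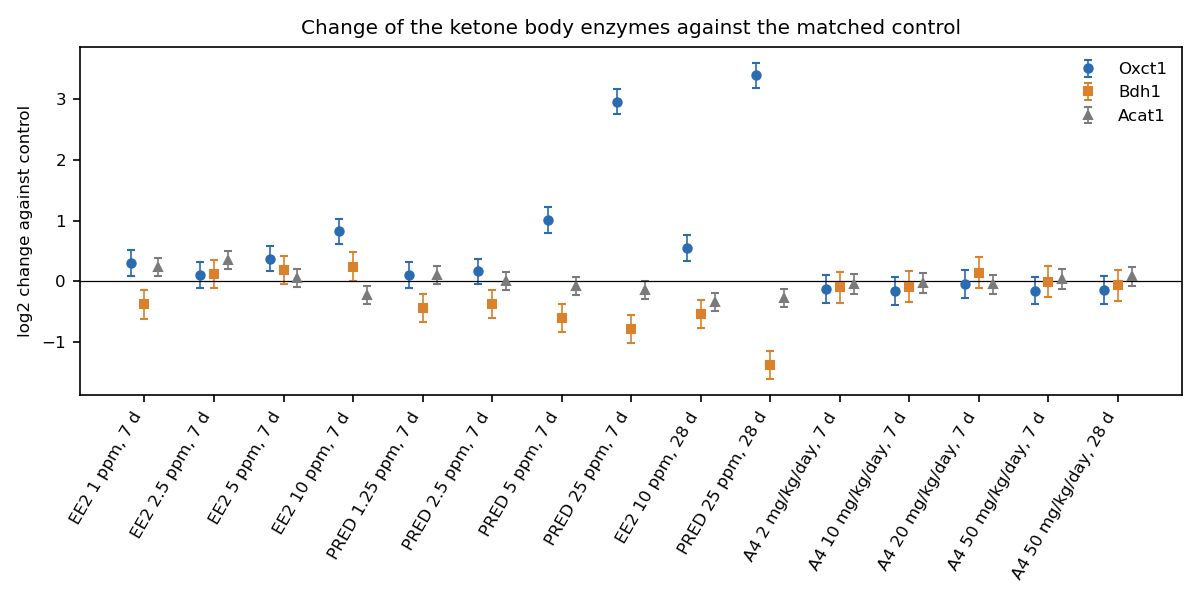
Change of Oxct1, Bdh1 and Acat1 against the matched control on the log2(intensity + 16) scale for the 15 treated groups. Points are fitted changes and bars ± 1 SE; Oxct1 reached 2.97 and 3.40 at PRED 25 ppm, and Bdh1 stood lowest in the same groups, at -0.79 and -1.38.

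The same model and threshold as for all genes (adjusted p under 0.05 over 11352 genes) called 2 of the 3 members at PRED 25 ppm for 7 d, Oxct1 upward and Bdh1 downward, where 6.01% of all tested genes were called. The same 2 were called at 28 d, where 9.89% of genes were. At PRED 1.25 and 2.5 ppm 0 members were called (limma; 0 at an unadjusted p under 0.05), against 0.0264% and 0% of genes. Oxct1 alone was called at PRED 5 ppm, against 0.599% of genes, at EE2 10 ppm for 7 d, against 33.3%, and at EE2 10 ppm for 28 d, against 28.6%. At EE2 1, 2.5 and 5 ppm 0 were called (limma; 0, 1 and 0 at an unadjusted p under 0.05), against 13.3%, 14.6% and 24.4% of genes, and under A4 0 were in any group (limma; 0 at an unadjusted p under 0.05), against 0% of genes. Nothing is read from these counts, since the same contrasts chose the members. Some calls were lost when 1 array was left out. The Oxct1 call at PRED 5 ppm was lost without replicate 1 (change 0.66). The Bdh1 call at PRED 25 ppm for 7 d was lost without PRED replicate 1 (-0.59) or 3 (-0.73), or control replicate 4 (-0.74) or 5 (-0.71). The Oxct1 call at EE2 10 ppm for 28 d was lost without EE2 replicate 1 (0.53), 3 (0.51) or 4 (0.55), or control replicate 2 (0.55), 3 (0.55) or 4 (0.52), while the change stayed between 0.51 and 0.62 whichever array was left out. Other calls appeared. Acat1 was called at EE2 2.5 ppm without replicate 3, and there and at EE2 10 ppm for 28 d with chip as a block. At EE2 1 ppm Bdh1 was called without replicate 2 and Acat1 without replicate 3. At EE2 10 ppm for 28 d Bdh1 was called without EE2 replicate 4 and Acat1 without control replicate 2.

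Arrays that did not overlap the controls can be set beside the same count over all genes in that direction. Under PRED 25 ppm 4.11% of tested genes lay wholly above the controls at 7 d and 5.58% at 28 d, as Oxct1 did, and 5.48% and 7.42% lay wholly below, as Bdh1 did. At PRED 5 ppm 1.44% lay wholly above, as Oxct1 did, and at PRED 1.25 ppm 0.846% lay wholly below, as Bdh1 did. At EE2 10 ppm for 28 d the shares were 13.4% above, as for Oxct1, and 12.6% below, as for Acat1.

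In the order of group levels, Oxct1 at PRED 25 ppm for 28 d (mean log2 level 10.80) came first, followed by PRED 25 ppm for 7 d (10.30) and PRED 5 ppm (8.35). Only the gaps of 0.502 and 1.95 between these 3 exceeded the residual SD of 0.327. From PRED 5 ppm down through both EE2 10 ppm groups (8.16 at 7 d and 7.96 at 28 d) to the feed controls at 7 d (7.34, the lowest) no neighbours differed beyond that spread. For Bdh1, from the feed controls at 28 d (10.11) to PRED 25 ppm for 28 d (8.72), no neighbours differed beyond the residual SD of 0.367, and the 5 PRED groups took 5 of the lowest 6 places. For Acat1, from EE2 2.5 ppm (7.84) to EE2 10 ppm for 7 d (7.27), none did beyond 0.231. Small gaps between neighbours say nothing of groups further apart, such as the ends of the Bdh1 order.

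The controls show how far the members differed between routes and between durations without a compound. The routes also differed in the vehicle. Gavage controls minus feed controls gave 0.20 (SE 0.209) for Oxct1, 0.19 (SE 0.234) for Bdh1 and 0.14 (SE 0.148) for Acat1 at 7 d, and 0.07, -0.21 and -0.08 at 28 d. Feed controls at 28 d minus those at 7 d gave 0.07 (SE 0.187) for Oxct1, 0.35 (SE 0.209) for Bdh1 and 0.26 (SE 0.132) for Acat1. The same difference between gavage controls was -0.058 (SE 0.229), -0.054 (SE 0.257) and 0.035 (SE 0.162) in that order.

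**Figure D4:**
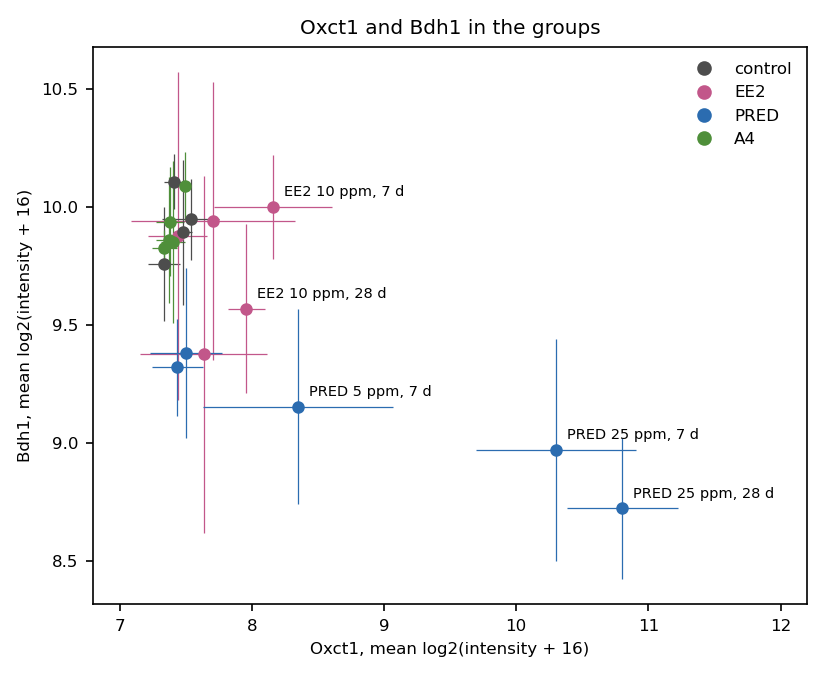
Mean log2(intensity + 16) of Oxct1 (horizontal) and Bdh1 (vertical) in each of the 19 groups, with bars of ± 1 SD over arrays. The PRED 25 ppm groups lie at the lower right, with Oxct1 at 10.30 and 10.80 and Bdh1 at 8.97 and 8.72, while controls and A4 groups crowd at the upper left.

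Over the 19 group means, Oxct1 and Bdh1 had a Pearson r of -0.773, Oxct1 and Acat1 of -0.54 and Bdh1 and Acat1 of 0.419, values that lean on the few PRED groups far from the rest. Among 1212 other genes whose group means spanned at least 1 log2 unit, the pattern most like Oxct1 was that of Serpina5, a serine protease inhibitor (r 0.987), with changes of 2.68 and 2.91 at PRED 25 ppm (7 d and 28 d) and 0.77 and 0.60 at EE2 10 ppm. Next came Timp4, an inhibitor of metalloproteinases (r 0.973), Cyp2b10, a drug-metabolizing cytochrome P450 (0.968), Sult1e1, the estrogen sulfotransferase (0.967), and Serpine2, another protease inhibitor (0.934). Timp4 changed by 3.49 and 4.90 and Cyp2b10 by 4.19 and 4.56 at PRED 25 ppm, while at EE2 10 ppm each had -0.02 and 0.13. Serpina5, Timp4, Cyp2b10 and Sult1e1 were detected on only 17 to 22 of the 80 arrays. Like the r values between the members, those with Oxct1 lean on the few PRED groups far from the rest. The span of 1 log2 unit can be met through such groups alone.

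For Bdh1 the most alike were Nup210, a nuclear pore protein (r 0.944), Oat, ornithine aminotransferase (0.859), Serpina7, thyroxine-binding globulin (0.846), Klkb1, the plasma kallikrein precursor (0.833), and Adh1, alcohol dehydrogenase (0.83). Oat changed by -0.60 and -1.39 at PRED 25 ppm and Serpina7 by -2.26 and -2.04. For Acat1, among 1213 genes, they were the retinol dehydrogenases Rdh9 (0.882) and Rdh16 (0.777), the sulfotransferase Sult1c2 (0.870) and the cytochromes P450 Cyp2c50 (0.830) and Cyp2c37 (0.825). Each r compares genes read on the same arrays with the same normalization.

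The rest of the ketone body pathway was described from a list of 26 other genes, of which 25 were in the table and 17 were detected on enough arrays to be tested (adjusted p-values from limma over all 11352 genes). Some of them passed the test at every EE2 dose. Of the 17, 2 rose and 2 fell at 1 ppm, 1 and 2 at 2.5 ppm, 2 and 3 at 5 ppm, 4 and 3 at 10 ppm for 7 d, and 2 and 4 at 10 ppm for 28 d. Shares of all genes called at these doses were 13.3%, 14.6%, 24.4%, 33.3% and 28.6%. At PRED 25 ppm 0 rose and 1 fell at 7 d, and 0 rose and 5 fell at 28 d, with 6.01% and 9.89% of all genes called. The median change of the 17 was -0.16 and -0.13 at EE2 10 ppm (7 d and 28 d) and 0.03 and -0.28 at PRED 25 ppm, where the median over all genes was within 0.008 of 0.

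Bdh2, a second 3-hydroxybutyrate dehydrogenase, fell by 1.02 at PRED 25 ppm for 28 d (limma adjusted p = 0.00901), with 3 of 4 arrays below every control.

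Of the genes that use acetoacetate or acetoacetyl-CoA in the cytosol, Aacs, acetoacetyl-CoA synthetase, fell at 28 d under both feeds. Its arrays at PRED 25 ppm read 642, 427, 701 and 551 against controls of 831 to 3857, a change of -1.89 (SE 0.452, limma adjusted p = 0.00244). At EE2 10 ppm for 28 d the change was -1.44 (limma adjusted p = 0.0113), and the feed controls at 28 d, with a median of 2492, read higher than those at 7 d, with a median of 808. Acat2, the cytosolic thiolase, fell at PRED 25 ppm, with changes of -0.998 at 7 d (limma adjusted p = 0.00174) and -0.78 at 28 d (adjusted p = 0.0138), all arrays below every control. It also fell at the lower EE2 doses, with -0.92 at 1 ppm, -0.92 at 2.5 ppm and -0.93 at 5 ppm (limma adjusted p from 0.000954 to 0.00272), and at 10 ppm for 7 d it had -0.45 (adjusted p = 0.113).

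Acat3, a close relative of Acat2 whose probe may share its transcripts, fell in all 5 EE2 groups with every array below every control. Its changes were -1.04, -1.08, -1.15 and -1.11 at rising dose for 7 d and -0.83 at 28 d (limma adjusted p from 5.14e-09 to 5.9e-06), and -0.49 at PRED 25 ppm for 28 d (adjusted p = 0.0171). Its arrays at EE2 10 ppm for 7 d read 182.0, 136.8, 180.9 and 180.2 against controls of 320.5 to 442.6. Oxct2a and Oxct2b, the testis forms of the CoA transferase, were detected on 0 arrays.

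**Figure D5:**
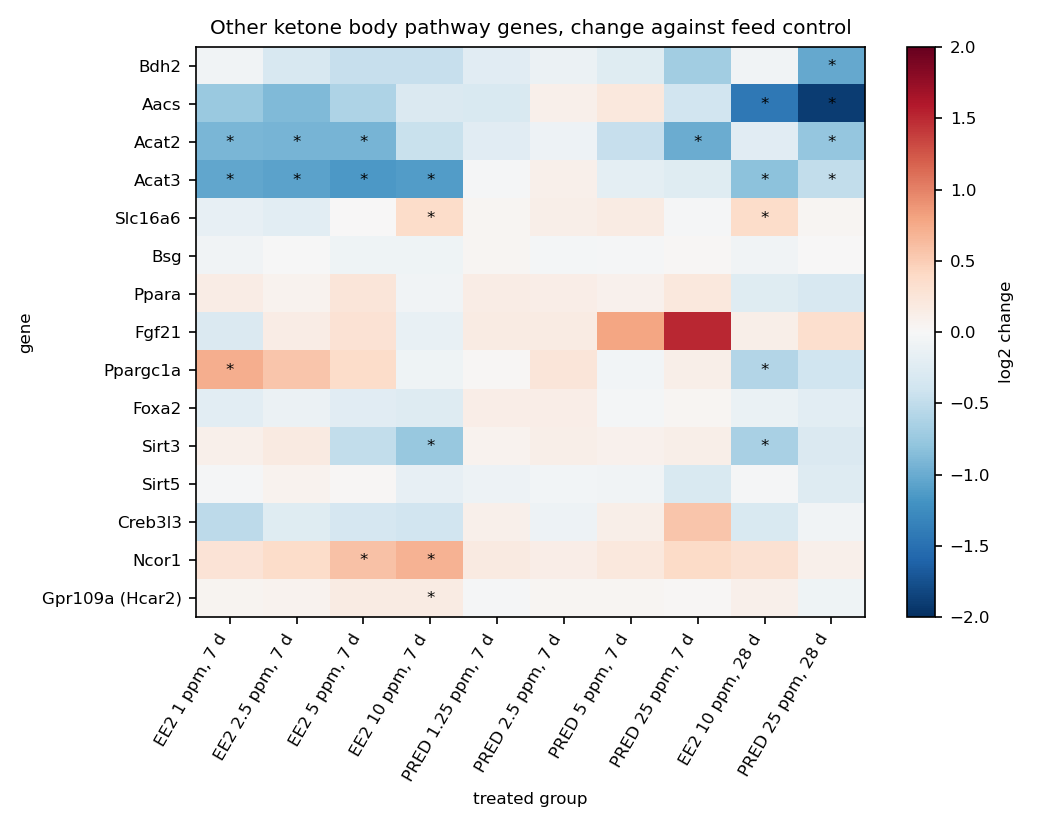
Change against the feed control, as colour on the log2(intensity + 16) scale limited to ± 2, for 15 of the 17 other ketone body pathway genes tested (rows) in the EE2 and PRED groups (columns). Asterisks mark limma adjusted p under 0.05; Acat3 carries one in all 5 EE2 groups, and at PRED 25 ppm for 28 d 4 of the genes drawn carry one, all lower.

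Of the carriers, Slc16a6, a ketone body exporter of the liver known from zebrafish, rose at EE2 10 ppm by 0.37 at 7 d (limma adjusted p = 0.00457) and 0.37 at 28 d (adjusted p = 0.00554), while Bsg, a chaperone of monocarboxylate carriers, was not called. The 7 d value was 0.22 without replicate 3 (adjusted p = 0.132). Slc16a1, Slc16a3, Slc16a7, Slc16a8 and Slc5a8 were detected on 0 to 2 arrays and were not tested.

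Of the 9 regulators, Sirt3, a mitochondrial deacetylase, fell at EE2 10 ppm, with changes of -0.75 at 7 d and -0.65 at 28 d (limma adjusted p = 0.00392 and 0.0144). The 7 d value was -0.56 without replicate 3 (adjusted p = 0.0583). Ncor1, a corepressor of nuclear receptors, rose by 0.58 at EE2 5 ppm and 0.70 at 10 ppm for 7 d (limma adjusted p = 0.0115 and 0.00138), and the first was lost in 2 of 10 cases when 1 array was left out. Ppargc1a, a coactivator of oxidative metabolism, rose by 0.73 at EE2 1 ppm (limma adjusted p = 0.0129) and had -0.59 at 10 ppm for 28 d (adjusted p = 0.029), calls that were lost in 2 and 4 of 10 cases. Gpr109a, now Hcar2, a 3-hydroxybutyrate receptor detected on 25 arrays, had 0.16 at EE2 10 ppm for 7 d (limma adjusted p = 0.0345), which was lost in 6 of 10 cases. Ppara, Fgf21, Foxa2, Sirt5 and Creb3l3 were not called in any of the 15 comparisons, which does not show that they were unchanged. At PRED 25 ppm for 7 d the mean log2 level of Fgf21 was 9.79 against 8.29 in the controls. That of Creb3l3 was 10.85 against 10.29 and that of Ppara 7.45 against 7.24. Foxa2 had 7.49 against 7.45 and Sirt5 8.04 against 8.35. The arrays of each overlapped the controls. Under A4 0 of the 17 genes passed the limma threshold in any group, with 0 to 2 at an unadjusted p under 0.05, and 0% of all tested genes were called.

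Neighbouring pathways are given by counts at EE2 10 ppm and PRED 25 ppm. Over all tested genes 18.1% rose and 15.2% fell at EE2 10 ppm for 7 d, and 14.8% and 13.8% at 28 d. The shares at PRED 25 ppm were 3.29% and 2.72% at 7 d, and 4.64% and 5.25% at 28 d. Of 14 tested genes of mitochondrial fatty acid oxidation, 0 rose and 7 fell at EE2 10 ppm for 7 d and 0 and 4 at 28 d, with median changes of -0.45 and -0.34. Among those that fell, Acads, short-chain acyl-CoA dehydrogenase, changed by -0.79 and -1.03, Decr1, a dienoyl-CoA reductase, by -0.78 and -0.92, and Acaa2, a mitochondrial 3-ketoacyl-CoA thiolase, by -0.63 and -0.83 (limma adjusted p from 3.32e-05 to 0.0102). Of these 14, 0 passed the limma threshold at PRED 25 ppm for 7 d, with 3 at an unadjusted p under 0.05, and 0 at 28 d, with 1.

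Of 16 genes around succinyl-CoA, which Oxct1 spends as its CoA donor, and the citric acid cycle, 1 rose and 5 fell at EE2 10 ppm for 7 d, close to the 33.3% of all genes called there, and 1 and 7 at 28 d, where 28.6% were called. Alas1, which draws succinyl-CoA into heme synthesis, rose by 2.41 and 2.42 (limma adjusted p = 4.55e-05 and 3.98e-05), and Suclg2, the GTP-forming subunit of succinyl-CoA ligase, fell, with changes of -0.59 and -0.75 (limma adjusted p = 0.000557 and 1.59e-05). Under PRED 25 ppm 1 of the 16 rose and 0 fell at 7 d, and 1 rose and 2 fell at 28 d. Idh3a, a subunit of isocitrate dehydrogenase, rose by 0.48 and 0.68 (limma adjusted p = 0.00441 and 1.22e-05), and Suclg1 and Suclg2 fell at 28 d, with changes of -0.36 and -0.44 (adjusted p = 0.0481 and 0.0275).

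Of 21 genes of branched-chain and ketogenic amino acid breakdown, 0 rose and 9 fell at EE2 10 ppm for 7 d, and 0 rose and 11 fell at 28 d, where 15.2% and 13.8% of all genes fell. Hpd, of tyrosine breakdown, changed by -1.23 and -1.27, Ivd, of leucine breakdown, by -0.66 and -1.14, Gcdh, of lysine breakdown, by -0.49 and -0.84, and Hibadh, of valine breakdown, by -0.43 and -0.81 (limma adjusted p from 2.18e-07 to 0.0175). Of the 21, 0 passed the limma threshold at PRED 25 ppm for 7 d, with 2 at an unadjusted p under 0.05, and 5 fell at 28 d, where 5.25% of all genes did. Both tested genes of the list for acetyl-CoA supply to sterols and fat, Acly and Acss2, fell at PRED 25 ppm, with changes of -1.004 and -1.059 at 7 d and -1.72 and -2.14 at 28 d (limma adjusted p from 8.2e-08 to 0.0467). Of these, only Acss2 was called at EE2 10 ppm, where it changed by -1.18 and -2.22 (limma adjusted p = 0.00101 and 7.62e-09).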

How the data were processed

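For the 80 arrays, liver RNA was isolated with Trizol, cleaned on RNeasy columns and made into biotinylated cRNA, per the labels' protocols. The submitters' processing notes name GenomeStudio without a version. The table the authors deposited gives, on a linear scale, a normalized intensity and a detection p-value for each symbol on each array. How it was normalized is not given in the labels. A second deposited value table gave 0 unequal intensities over 18111 shared symbols. Samples were grouped by the compound, dose and duration in the labels.

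Intensities were analysed as log2(intensity + 16) with limma 3.58.1 in R 4.3.3 (statmod 1.5.0 for the random block). After 8 control entries were left out, tests ran on the 11352 of 18130 entries that 4 or more arrays detected (detection p under 0.05). One model held a mean for each of 19 groups, with 61 residual degrees of freedom. Tests were two-sided, with Benjamini-Hochberg adjustment over all tested genes within each comparison and a threshold of 0.05. The scripts were tested on simulated data. The number of arrays and the signal over background limit the precision. Arrays sat on 10 chips of 8 arrays, and a chip held arrays of 6 to 8 groups. The sample names carry numbers of unstated meaning, 9 of which recur, on 19 arrays in all.

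The members, the lists and the tests were chosen with earlier results of these data known. Named beside the members were the core list genes past the threshold in any of 15 comparisons, except any not reported here, up to 4 of each related list with the largest changes among genes called at EE2 10 ppm, and the 5 genes most like each member. Idh3a, Suclg1 and Acly, the PRED values of the other related genes and the PRED levels of the uncalled regulators were added after their values were seen. Alternatives were the added constant, the detection filter, the chip as a block, only the groups compared, the name number as a random block, robust moderation, within-chip values and leaving out each array. Promoter windows and gene positions are RefSeq's on GRCm38.p6; 2 of the 3 members had a promoter entry.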

Additional observations from a re-analysis of the deposited data

Results flagged for a closer look

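In 57 sets, each of them 1 member in 1 group of 4 or 6 arrays, the lowest or highest array was compared with the others by Dixon's test. Chance marks about 1 set in 20. 4 arrays stood apart. Oxct1 at PRED 5 ppm for 7 d had 1 array at 660.1, while the other 3 read 208.5 to 277.7. Bdh1 at EE2 10 ppm for 7 d had 1 array at 799.6, below the other 3 at 1079.1 to 1096.5. Bdh1 in the gavage controls at 28 d had 1 array at 675.8, below the others at 1021.4 to 1070.9, and without it the A4 change at 28 d was -0.22 in place of -0.07. Acat1 at EE2 5 ppm for 7 d had 1 array at 297.0, above the others at 132.5 to 147.0.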

How the results depend on the processing

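The 7 called changes of Oxct1 and Bdh1 kept their direction in 141 of 141 alternatives. All of these reuse the same arrays, and the members were chosen by the same contrasts. A kept direction was therefore likely beforehand and is not read as support. Of 360 member changes recomputed under settings other than leaving out arrays or splitting by chip, 2 moved by more than 1 SD between replicates: Oxct1 at PRED 25 ppm for 28 d was 3.08 with 64 added, and Oxct1 at A4 2 mg/kg/day was 0.048 with chip as a block. With the name number as a random block (correlation 0.378), the Oxct1 call at EE2 10 ppm for 28 d was lost (0.55). With chip as a block Acat1 was called at EE2 2.5 ppm and at EE2 10 ppm for 28 d. Chips held 1 or few arrays of a group. Of 72 member changes computed within single chips, 29 moved by more than 1 SD between replicates, and only those are listed next. Within single chips Oxct1 changes were 0.26 at EE2 10 ppm for 7 d, 2.00 at PRED 5 ppm, and 2.74 and 3.86 at PRED 25 ppm for 28 d; they were 0.45 and -0.069 at EE2 2.5 ppm, 0.32 at PRED 1.25 ppm and 0.042 at A4 50 mg/kg/day for 7 d. Bdh1 within chips was -1.40 and -1.02 at EE2 1 ppm, 1.12 at 2.5 ppm, -0.63 at 5 ppm, 0.49 at 10 ppm for 7 d and -0.12 for 28 d; -0.75 at PRED 2.5 ppm, -1.44 at 5 ppm, -1.32 at 25 ppm for 7 d and -1.69 for 28 d; and -0.35 at A4 10 mg/kg/day. Acat1 within chips was 0.96 at EE2 2.5 ppm, -0.36 at 5 ppm and -0.073 at 10 ppm for 28 d; 0.38 at PRED 1.25 ppm, -0.33 at 2.5 ppm, -0.27, -0.32 and 0.082 at 5 ppm, -0.39 at 25 ppm for 7 d and -0.56 for 28 d. The other within-chip values are left out of these lists and lay within 1 SD of the full fit. Among them Oxct1 had 0.943 at EE2 10 ppm for 7 d, and 0.705 and 0.568 at PRED 5 ppm. At PRED 25 ppm for 7 d Oxct1 had 2.996 and 3.103. Bdh1 had -0.251 at EE2 2.5 ppm and 0.184 at 5 ppm. The cause of the moves was not tested.

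Of the other 17 pathway genes, 2 rose at PRED 25 ppm for 7 d with chip as a block and 2 with only the groups compared, in place of 0. With the random block 2 fell at EE2 10 ppm for 28 d and 3 at PRED 25 ppm for 28 d, in place of 4 and 5. With only the groups compared 2 rose at EE2 10 ppm for 7 d in place of 4, and 7 fell at 28 d. Leaving out 1 array gave 2 to 4 risen at EE2 10 ppm for 7 d, and at PRED 25 ppm for 7 d 0 to 1 risen and 1 to 3 fallen. Genes called in all numbered 6 at PRED 1.25 ppm with no filter, in place of 3; with the random block 45 at PRED 5 ppm, 425 at 25 ppm for 7 d and 685 for 28 d, in place of 68, 682 and 1123; and with only the groups compared 641 at EE2 1 ppm, 1160 at 5 ppm, 1 at PRED 1.25 ppm and 43 at 5 ppm, in place of 1515, 2770, 3 and 68. Leaving out 1 array gave 899 to 1737 at EE2 1 ppm, 1 to 3 at PRED 1.25 ppm, 0 to 1 at PRED 2.5 ppm, 32 to 65 at PRED 5 ppm, 412 to 736 at PRED 25 ppm for 7 d and 0 to 1 at A4 2 mg/kg/day. No paired analysis was possible because no number in the sample names is shared between a treated group and its control, so that only the chip and the repeated numbers could serve as blocks. Oxct1 and Acat1 lay near background in the controls, which limits how small a level could be read.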
